A study of Homo sapiens with 8 samples.

Results

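The immunoproteasome and peptide loading genes are the 10 genes PSMB8, PSMB9, PSMB10, PSME1, PSME2, TAP1, TAP2, TAPBP, ERAP1 and ERAP2. They were taken by symbol from a deposited table of 58735 genes, and all 10 symbols matched exactly 1 gene each. RNA had been sequenced in 8 samples of LN229 cells, a line established from a human glioblastoma. In 4 samples the cells had received bortezomib (7.5 nM), a proteasome inhibitor, and panobinostat (15 nM), an inhibitor of histone deacetylases, for 48 h, here called the combination. The other 4 samples, titled DMSO after the drug solvent, are labelled as untreated, while the protocol text names DMSO for 48 h. The extraction text speaks of brain tissue, although every sample is labelled as this cell line. Both drugs were given together in every treated sample, so the effect of one cannot be told apart from that of the other, and all samples come from 1 cell line. The labels do not state whether replicates were separate cultures, and p-values therefore reflect only how much these samples vary, which may be technical variation.

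Cells cut cytosolic proteins into peptides with the proteasome. Interferons and some immune cell types replace its constitutive catalytic subunits PSMB5, PSMB6 and PSMB7 with the inducible subunits PSMB8, PSMB9 and PSMB10, and the resulting particle is called the immunoproteasome. PSME1 and PSME2 form the PA28 activator ring, which docks onto the proteasome. TAP1 and TAP2 pump peptides into the endoplasmic reticulum, ERAP1 and ERAP2 trim them there, and TAPBP (tapasin) holds empty class I molecules at the transporter until they are loaded. In glioblastoma, as in other tumours, the amount of this machinery bears on how well T cells see the tumour cell.

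Libraries held 15198520 to 17324292 reads assigned to genes after the combination and 15189251 to 16795929 in DMSO. The mitochondrial genome took 11.7% to 15.1% of these reads after the combination and 4.31% to 6.69% in DMSO. Among the markers of the cell line, VIM stood at 116 ± 5.65 against 315 ± 18.1 FPKM and SOX2 at 5.78 ± 0.668 against 54.3 ± 1.94 FPKM, in the order combination and DMSO, while GFAP was close to 0 in both (0.0414 ± 0.0236 against 0.220 ± 0.00415 FPKM). CD44 stood at 54.8 ± 1.35 against 53.1 ± 2.31 FPKM, without a call (limma adjusted p = 0.292), and OLIG2 was higher, at 149.7% of the DMSO mean (limma adjusted p = 0.00300). Leukocytes carry the inducible subunits without stimulation. Of 10 leukocyte markers only LAPTM5 and CD74 averaged at least 1 FPKM, AIF1 had 0 reads in all 8 samples, and PTPRC, the pan-leukocyte marker, stood at 0.0365 ± 0.0334 FPKM after the combination and 0.00655 ± 0.00758 FPKM in DMSO. The summed level of the 10 markers, nearly all of it CD74, was 292 to 310 FPKM against 573 to 623 FPKM. In bulk RNA, fewer cells that express a gene and less RNA of it per cell cannot be told apart.

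All 10 genes fell after the combination. FPKM, fragments scaled by gene length and by library size, is a level that can be compared between genes, and by this measure the combination samples held between 9.07% (PSMB10) and 59.6% (PSME1) of the DMSO mean. In no gene did the 4 combination values overlap the 4 DMSO values. The test was limma on log2(FPKM + 1) over 13296 genes with Benjamini-Hochberg adjustment, and a gene was called at an adjusted p under 0.05. It called 41.0% of all genes tested lower and 36.9% higher, so a call by itself says little here. Groups did not overlap in the lower direction for 38.5% of the genes tested. A decrease of at least 2-fold on the fitted scale was found for 8 of the 10 members and for 11.1% of all genes tested. The median log2 change was -1.48 over the members and -0.03 over all genes tested. PSMB10 and ERAP2 averaged under 1 FPKM after the combination and passed the filter on low values, an 8-sample mean of 1 FPKM or more, through their DMSO level. When libraries were scaled to reads outside the mitochondrial genome, all 10 members were again called lower, with a median log2 change of -1.44. Calls over all genes depended on the scaling, with 46.2% higher and 33.3% lower under upper-quartile factors, 33.4% higher and 44.3% lower under library totals, and 33.8% higher and 44.6% lower by voom on recovered reads.

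**Figure D1:**
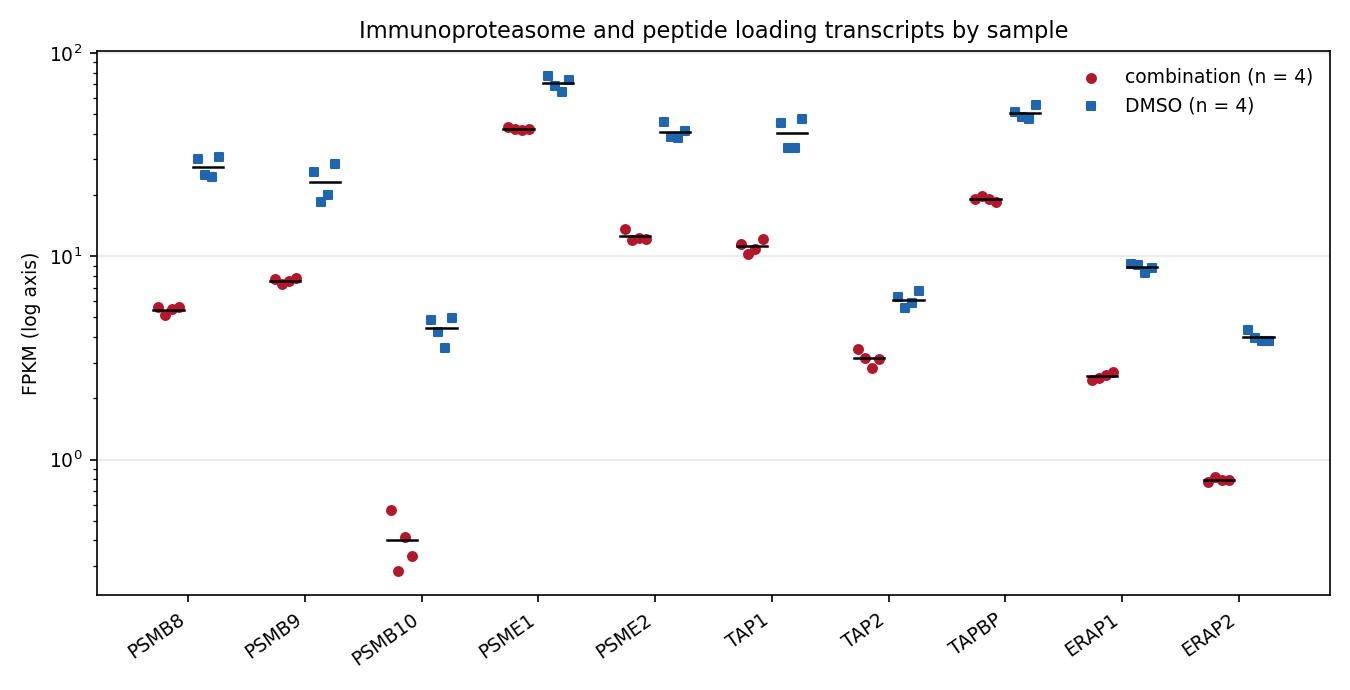
FPKM of each of the 10 genes in every sample on a log axis, with 4 combination samples as red circles left of 4 DMSO samples as blue squares and the group mean as a black line. In every gene the combination samples lie below the DMSO samples, from 0.401 against 4.42 FPKM for PSMB10 to 42.4 against 71.1 FPKM for PSME1.

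Most of these genes hold a shared sequence in their promoters. Its letters were not used to choose the members. The inducible subunits are known for their response to interferons, however, so the choice of members is not independent of this sequence. Interferon-stimulated response elements (ISREs) are bound by IRF factors and by complexes that hold STAT2 and IRF9. Their core was searched here as 2 copies of GAAA with any 2 bases between them, on both strands. The windows searched run from 250 bases before to 50 bases after each RefSeq gene start, on GRCh38.p14. The core was found in at least 1 window of 9 of the 10 members, against 4.38% of the 27305 genes with a window. The matched stretches are shown 5′ to 3′ on the strand of the gene, with 12 flanking bases and the matched letters in capitals.
PSMB8, chr6:32844030-32844063, minus strand: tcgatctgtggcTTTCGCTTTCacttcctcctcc
PSMB10, chr16:67936850-67936883, minus strand: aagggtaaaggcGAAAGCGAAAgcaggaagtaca
PSME1, chr14:24136187-24136220, plus strand: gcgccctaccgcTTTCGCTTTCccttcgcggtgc
PSME2, chr14:24146617-24146650, minus strand: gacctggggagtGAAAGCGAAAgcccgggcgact
TAP1, chr6:32853811-32853850, minus strand: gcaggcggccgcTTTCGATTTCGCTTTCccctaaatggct
TAP2, chr6:32838776-32838809, minus strand: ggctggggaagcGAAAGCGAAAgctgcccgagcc
TAPBP, chr6:33314071-33314110, minus strand: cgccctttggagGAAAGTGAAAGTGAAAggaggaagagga
ERAP1, chr5:96807922-96807955, minus strand: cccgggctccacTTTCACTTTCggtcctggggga
ERAP2, chr5:96876458-96876491, plus strand: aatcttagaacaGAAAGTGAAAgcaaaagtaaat

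In PSMB8, PSMB10, PSME1, PSME2, TAPBP and both ERAP genes the match began within 30 bases of a RefSeq start on either side, and in TAP2 at 58 bases before it. PSMB8, PSME1, TAP1 and ERAP1 carried the core on the strand opposite to the gene, where the repeated letters read TTTC. TAP1 and TAPBP held 2 overlapping copies. The window of PSMB9 held none. PSMB9 and TAP1 run away from each other from RefSeq starts 487 bases apart, and the doubled core of TAP1 lies in this interval, 119 bases from the TAP1 start and 354 bases from the PSMB9 start. The GAS element, known from responses to interferon gamma and searched as TTCNNNGAA, was found in windows of PSMB8 and TAP1, against 9.38% of all genes. These matches describe letters only and were tested for no binding. The whole TAP1 window that holds the doubled core (chr6:32853655-32853954, minus strand, RefSeq on GRCh38.p14) is shown because the doubled core lies between both RefSeq starts, with the core in capitals.
TAP1: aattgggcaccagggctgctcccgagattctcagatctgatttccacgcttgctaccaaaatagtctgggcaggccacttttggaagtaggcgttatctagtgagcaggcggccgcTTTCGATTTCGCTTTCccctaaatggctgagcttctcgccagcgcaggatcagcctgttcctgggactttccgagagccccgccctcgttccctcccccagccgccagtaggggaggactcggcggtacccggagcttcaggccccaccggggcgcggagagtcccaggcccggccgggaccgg

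The inducible catalytic subunits fell to between 9.07% (PSMB10) and 32.6% (PSMB9) of their DMSO means. PSMB8 (also called LMP7), on chromosome 6 (32840717 to 32844703, minus strand, GRCh38), is the chymotrypsin-like inducible subunit and, like PSMB5, is bound by bortezomib. Its level was 5.63, 5.13, 5.48 and 5.64 FPKM in the combination samples, against 30.0, 25.1, 24.6 and 30.7 FPKM in the DMSO samples. The combination samples lay close together at 19.8% of the DMSO mean, with a log2 change of -2.14 ± 0.07 (SE, limma adjusted p = 5.99e-09). Exons of other genes on the opposite strand, PSMB8-AS1 and PSMB9, lie over 20.6% of the exon length of PSMB8. The antisense gene PSMB8-AS1 itself stood at 0.352 ± 0.0695 FPKM after the combination and 1.56 ± 0.606 FPKM in DMSO and was not tested, being under the filter. No source used here says whether the libraries kept strand, so reads of overlapping stretches cannot be assigned.

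PSMB9 (LMP2), the inducible counterpart of PSMB6, lies on the other strand (chromosome 6, 32844136 to 32859585), where its annotated span shares 568 bases with PSMB8 and contains the whole of TAP1. It measured 7.71, 7.29, 7.54 and 7.82 FPKM after the combination, against 26.0, 18.5, 20.1 and 28.6 FPKM in DMSO. DMSO samples 1 and 4 were high and 2 and 3 low, while the combination samples hardly differed from each other. The group means stood 3.07-fold apart, with a log2 change of -1.48 ± 0.12 (SE, limma adjusted p = 2.49e-06). PSMB8-AS1 exons on the same strand lie over 5.66% of the exon length of PSMB9, and PSMB8 exons on the opposite strand over 4.525%. PSMB10 (MECL-1), the inducible trypsin-like subunit on chromosome 16 (67934502 to 67937087), had the lowest level of the 3. It stood at 0.567, 0.284, 0.416 and 0.337 FPKM after the combination, against 4.87, 4.26, 3.56 and 4.99 FPKM in DMSO. Those values rest on 16, 9, 12 and 10 reads in the combination samples and 157, 126, 110 and 146 reads in the DMSO samples. The combination mean was 9.07% of the DMSO mean, the widest gap among the members. The log2 change was -1.95 ± 0.10 (SE, limma adjusted p = 1.09e-07) with the added 1 FPKM, which understates low genes, -3.52 by voom on the recovered reads and -0.80 with 5 FPKM added. Exons of AC040162.1 on the same strand cover 34.8% of its exon length, and reads there may have been counted for either gene, both or neither.

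The constitutive counterparts moved the other way. PSMB5 stood at 90.8 ± 5.96 against 67.2 ± 1.44 FPKM, PSMB6 at 71.1 ± 4.27 against 48.8 ± 3.21 FPKM and PSMB7 at 162 ± 4.44 against 87.7 ± 3.69 FPKM (SD, n = 4 each, combination and DMSO). All 3 were called higher. The ratio of 2 genes within 1 library does not depend on how libraries are scaled, so 7 such ratios were tested by exact permutation of the samples (two-sided, Benjamini-Hochberg adjustment over the 7). PSMB8 over PSMB5 was 0.0642, 0.0611, 0.0571 and 0.0591 after the combination, against 0.434, 0.378, 0.374 and 0.455 in DMSO. This ratio fell 6.78-fold (log2 difference -2.76 ± 0.08, SE). PSMB9 over PSMB6 was 0.115, 0.107, 0.104 and 0.102, against 0.518, 0.412, 0.383 and 0.598, a smaller fall (log2 difference -2.14 ± 0.15, SE). PSMB10 over PSMB7 fell 20.9-fold (log2 difference -4.39 ± 0.24, SE), resting on the few PSMB10 reads given above. With 1 FPKM added to both genes its log2 difference was -2.83. In all 7 ratios the groups did not overlap, and each had exact p = 0.0286 (adjusted p = 0.0286), and a design of this size allows no smaller value. How often ratios of other gene pairs separate the groups was not computed. With 41.0% of all genes tested called lower and 36.9% higher, separation by itself says little about these pairs. Of the summed FPKM of these 6 catalytic subunits, the inducible ones made up 3.85% to 4.22% after the combination and 18.8% to 24.3% in DMSO. These are transcripts, and neither subunit proteins nor assembled particles were measured.

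**Figure D2:**
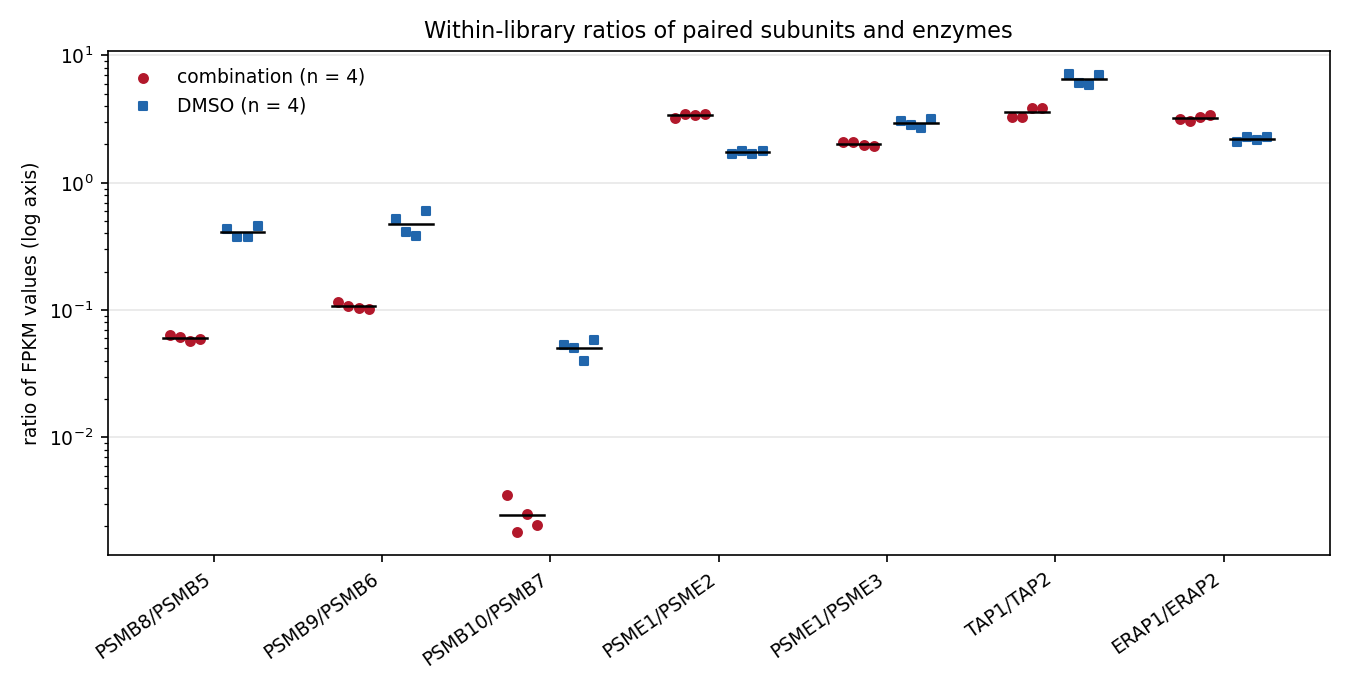
Ratio of FPKM values of the 7 gene pairs within each library on a log axis, with combination samples as red circles left of DMSO samples as blue squares and the group mean as a black line. The 3 ratios of inducible to constitutive catalytic subunits, PSME1 over PSME3 and TAP1 over TAP2 were lower after the combination, while PSME1 over PSME2 and ERAP1 over ERAP2 were higher.

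The PA28 activator subunits fell by unequal amounts. PSME1 (PA28 alpha, chromosome 14, 24136158 to 24138967) was the most abundant member in both groups. It measured 43.4, 42.1, 41.9 and 42.3 FPKM after the combination, against 77.5, 68.7, 64.5 and 73.9 FPKM in DMSO. This was the mildest change of the 10 genes, with a log2 change of -0.73 ± 0.05 (SE, limma adjusted p = 1.07e-06). PSME2 (PA28 beta, 24143362 to 24147570) lies 4394 bases away on the other strand. It measured 13.6, 12.1, 12.3 and 12.2 FPKM after the combination, against 46.0, 38.5, 38.2 and 41.4 FPKM in DMSO, with a log2 change of -1.63 ± 0.06 (SE, limma adjusted p = 1.22e-08). Both genes were lower in every combination sample, and PSME2 lost more. PSME1 over PSME2 was therefore 3.20, 3.49, 3.41 and 3.48 after the combination, against 1.69, 1.78, 1.69 and 1.78 in DMSO (exact p = 0.0286). PSME3, which forms the separate nuclear PA28 gamma activator, stood at 21.0 ± 0.605 against 24.1 ± 0.870 FPKM. Its decrease was called here but not with upper-quartile factors (limma adjusted p = 0.444). PSME1 over PSME3 fell by 0.54 on the log2 scale (exact p = 0.0286).

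The peptide transporter genes also fell by unequal amounts. TAP1 (chromosome 6, 32845209 to 32853978, minus strand) measured 11.5, 10.3, 10.9 and 12.2 FPKM after the combination, against 45.2, 34.0, 34.2 and 47.5 FPKM in DMSO. DMSO samples 1 and 4 again stood above 2 and 3, and the log2 change was -1.74 ± 0.11 (SE, limma adjusted p = 4.39e-07). TAP2 (32821833 to 32838780, same strand) measured 3.49, 3.15, 2.81 and 3.13 FPKM, against 6.27, 5.57, 5.89 and 6.77 FPKM, with a log2 change of -0.78 ± 0.07 (SE, limma adjusted p = 3.46e-06). Both subunits are needed for the working transporter. TAP1 over TAP2 was 3.29, 3.26, 3.88 and 3.89 after the combination, against 7.20, 6.11, 5.81 and 7.01 in DMSO (exact p = 0.0286). PSMB8-AS1 exons on the opposite strand lie over 9.49% of the exon length of TAP1. Exons of AL669918.1 on the same strand lie over 32.3% of the exon length of TAP2, and that gene is listed at 0 in all 8 samples. TAPBP (33299694 to 33314387, minus strand) measured 19.1, 19.9, 19.2 and 18.5 FPKM, against 51.2, 48.4, 47.5 and 55.8 FPKM. It fell to 37.8% of the DMSO mean, with a log2 change of -1.36 ± 0.05 (SE, limma adjusted p = 9.70e-09), and no exon of another gene lies over its exons.

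The trimming enzymes ERAP1 and ERAP2 are neighbours on chromosome 5 that point in opposite directions, with 67838 bases between them. ERAP1 (96760810 to 96808100) measured 2.47, 2.51, 2.60 and 2.69 FPKM after the combination, against 9.14, 9.09, 8.29 and 8.78 FPKM in DMSO, with a log2 change of -1.46 ± 0.04 (SE, limma adjusted p = 1.92e-09). It had the smallest standard error of the 10 genes. ERAP2 (96875939 to 96919716) measured 0.778, 0.820, 0.796 and 0.790 FPKM, against 4.35, 3.98, 3.85 and 3.83 FPKM. It rests on 88 to 104 reads per combination sample and 449 to 562 reads per DMSO sample, and its log2 change was -1.48 ± 0.05 (SE, limma adjusted p = 9.30e-09), against -2.39 by voom and -0.64 with 5 FPKM added. On the linear scale ERAP2 kept 19.9% and ERAP1 29.1% of the DMSO mean. ERAP1 over ERAP2 was 3.17, 3.06, 3.27 and 3.41 after the combination, against 2.10, 2.28, 2.15 and 2.29 in DMSO (exact p = 0.0286). With 1 FPKM added to both genes the ratio no longer differed by the test (log2 difference 0.02, adjusted exact p = 0.60). ERAP2 averaged 0.796 FPKM after the combination, less than the added value, and 4.005 FPKM in DMSO.

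The order of levels was nearly kept. After the combination it ran PSME1, TAPBP, PSME2, TAP1, PSMB9, PSMB8, TAP2, ERAP1, ERAP2 and PSMB10 from high to low, and the values of PSME2 and TAP1 overlapped. In DMSO it ran PSME1, TAPBP, PSME2, TAP1, PSMB8, PSMB9, ERAP1, TAP2, PSMB10 and ERAP2. There the values overlapped between PSME2 and TAP1, between PSMB8 and PSMB9 and between PSMB10 and ERAP2. TAP2 lay above ERAP1 after the combination and below it in DMSO, without overlap in either group.

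The DMSO samples varied in a shared way. DMSO replicate 1 or 4 was the highest DMSO sample for all 10 members, a trait whose share over all genes was not counted. In 8 of the 10, all but ERAP1 and ERAP2, replicates 1 and 4 both exceeded replicates 2 and 3, an order held by 18.4% of all genes tested. The order was noticed after the values were seen and is given as a description. The spread was widest for PSMB9, with a coefficient of variation of 20.6% in DMSO and 3.04% after the combination, and for TAP1, with 17.7% and 7.23%. ERAP1 varied by 4.43% in DMSO and 3.91% after the combination. The same order of DMSO replicates was held by the class I heavy chain genes HLA-B, HLA-C, HLA-E and HLA-F and by 8 of 11 tested genes of interferon signalling, STAT2 and NLRC5 among them. It was held by 2 of 5 other loading genes, 2 of 7 other peptidases, 1 of 3 constitutive catalytic subunits and none of 6 other activator and assembly genes. Leaving out any 1 sample kept all 10 members called lower.

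**Figure D3:**
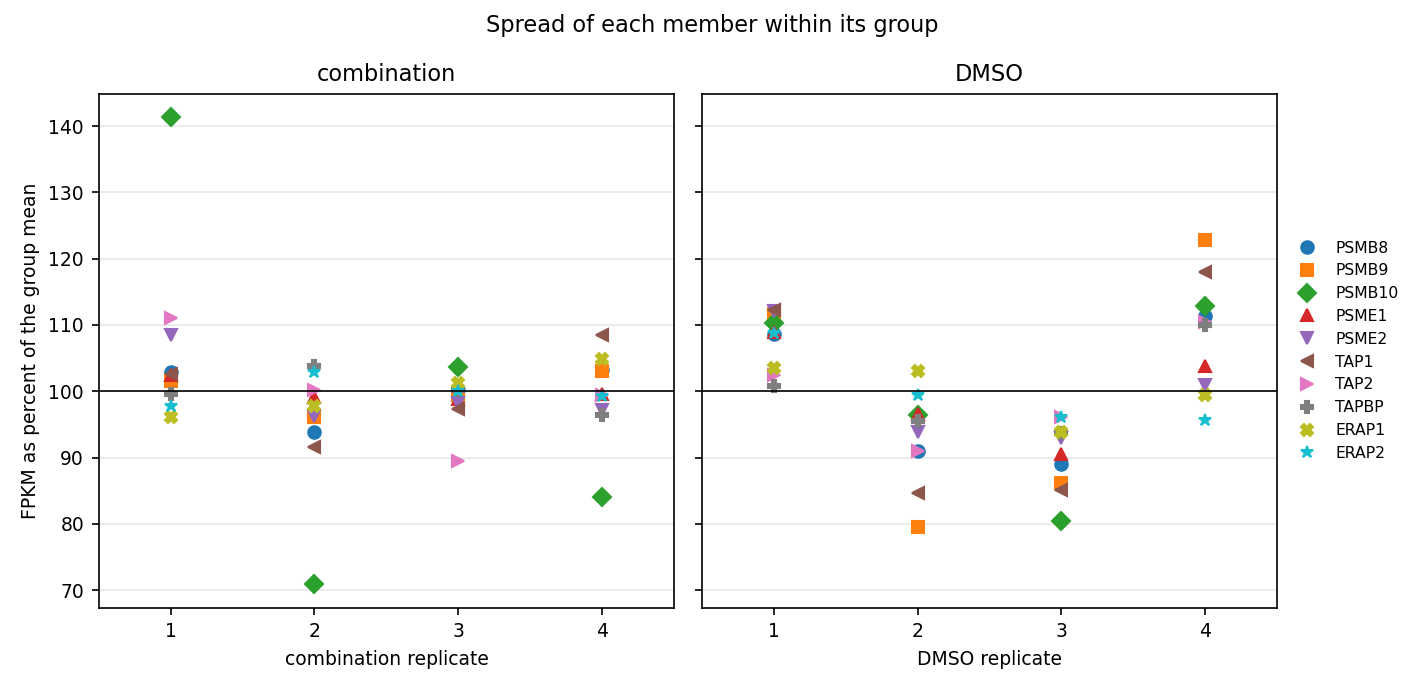
FPKM of each member in each sample as a percent of its group mean, with the 4 combination samples in the left panel and the 4 DMSO samples in the right panel. Most members lie above 100% in DMSO replicates 1 and 4 and below it in 2 and 3, and PSMB10, with 9 to 16 reads per sample, spreads most after the combination.

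Other genes of the pathway fell in part. Of 5 other loading genes, all 5 were lower (median log2 change -1.07), against 41.0% of all genes tested. CALR and CANX are lectin chaperones of the endoplasmic reticulum, and PDIA3 (ERp57) is bound to tapasin in the loading complex. CALR stood at 336 ± 18.1 against 709 ± 17.9 FPKM, CANX at 98.8 ± 2.04 against 164 ± 4.90 FPKM and PDIA3 at 99.1 ± 2.68 against 216 ± 8.52 FPKM. TAPBPL (TAPBPR), a tapasin relative that edits peptides outside the complex, stood at 2.30 ± 0.250 against 7.03 ± 0.537 FPKM. B2M, the light chain shared by all class I molecules, stood at 115 ± 3.67 against 184 ± 23.5 FPKM. Of the heavy chain genes, HLA-E, the ligand of the NKG2A receptor, fell to 41.1 ± 1.78 against 106 ± 10.9 FPKM. HLA-B was lower too, and HLA-C stood at 54.8 ± 3.07 against 67.5 ± 13.8 FPKM (limma adjusted p = 0.0735). HLA-C was called lower without DMSO replicate 2 (limma adjusted p = 0.0240) or 3 (0.0294), and with library totals, voom or the replicate block. Heavy chain genes are alike and polymorphic, so reads may be shared between them.

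Among proteasome factors outside the members, 3 of 6 were higher, 2 lower and 1 not called (median log2 change 0.19). The shares over all genes tested were 36.9% higher and 41.0% lower, so this split is close to that background. The gene without a call, the assembly chaperone PSMG1, was called higher with upper-quartile factors (limma adjusted p = 0.0375). POMP, the chaperone of core particle assembly, stood at 131 ± 3.32 against 74.8 ± 2.92 FPKM. PSME4 (PA200), an activator of nuclear proteasomes, stood at 13.6 ± 0.897 against 9.28 ± 0.238 FPKM, and PSMF1 (PI31), first described as a proteasome inhibitor, at 33.6 ± 0.996 against 24.9 ± 0.755 FPKM. Other peptidases that destroy or trim peptides were split, with 3 higher, 3 lower and 1 not called of 7 (median log2 change 0.08). LAP3, a cytosolic leucine aminopeptidase, fell to 11.3 ± 0.622 against 44.8 ± 5.81 FPKM (log2 change -1.89 ± 0.08, SE, limma adjusted p = 3.41e-08). THOP1, which degrades peptides in the cytosol, stood at 6.21 ± 0.186 against 12.5 ± 0.575 FPKM, and NRDC (nardilysin) at 46.6 ± 0.707 against 27.3 ± 0.653 FPKM. LNPEP (IRAP), an aminopeptidase related to ERAP1 and ERAP2, stood at 2.79 ± 0.159 against 3.46 ± 0.332 FPKM, a call lost with upper-quartile factors (limma adjusted p = 0.167). BLMH, called higher, lost its call with library totals (limma adjusted p = 0.0629) and voom (0.0802). TPP2, not called, was called higher with upper-quartile factors, median-of-ratios factors, quantile normalization and nuclear read totals (limma adjusted p = 0.00092 to 0.0310).

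Of 11 tested receptors and factors that act on these genes, 7 were lower, 2 higher and 2 not called (median log2 change -0.71). Of all genes tested, 41.0% were lower and 36.9% higher. STAT2, a transcription factor of type I interferon responses, fell to 44.1% of the DMSO mean, with 12.5 to 14.3 against 25.8 to 34.7 FPKM. NLRC5, the transactivator of class I genes, stood at 1.09 to 1.34 against 3.34 to 4.86 FPKM, and RFX5, which binds class I and II promoters, at 11.2 ± 0.585 against 19.0 ± 0.721 FPKM. IFNGR2, a chain of the interferon gamma receptor, fell to 13.2 ± 0.216 against 28.7 ± 1.17 FPKM, while the other chain, IFNGR1, rose to 9.74 ± 0.464 against 6.19 ± 0.467 FPKM. IRF1, an ISRE-binding activator, was not called, with 5.06 ± 0.610 against 4.35 ± 0.782 FPKM (limma adjusted p = 0.142, but called higher with upper-quartile factors, 0.0176, with quantile normalization, 0.0268, and without DMSO replicate 4, 0.0136). IRF9, the ISRE-binding partner of STAT2, stood at 0.148 to 0.308 against 1.34 to 1.65 FPKM without overlap and was under the filter. JAK1, a kinase at both receptors, stood at 19.3 ± 0.447 against 19.6 ± 0.242 FPKM (limma adjusted p = 0.516, called lower with library totals and higher with upper-quartile factors and quantile normalization). Of the called genes, JAK2 (lower, limma adjusted p = 0.0206) lost its call without combination replicate 1 (0.0550) or 4 (0.0520) or DMSO replicate 1 (0.0576). It also lost the call with upper-quartile factors (0.135), without the filter (0.0510) and under the replicate block (0.0510). IFNAR1 (higher, limma adjusted p = 0.0495) lost it without any 1 of combination replicates 2 and 4 and DMSO replicates 1, 2 and 3 (0.0904 to 0.129).

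**Figure D4:**
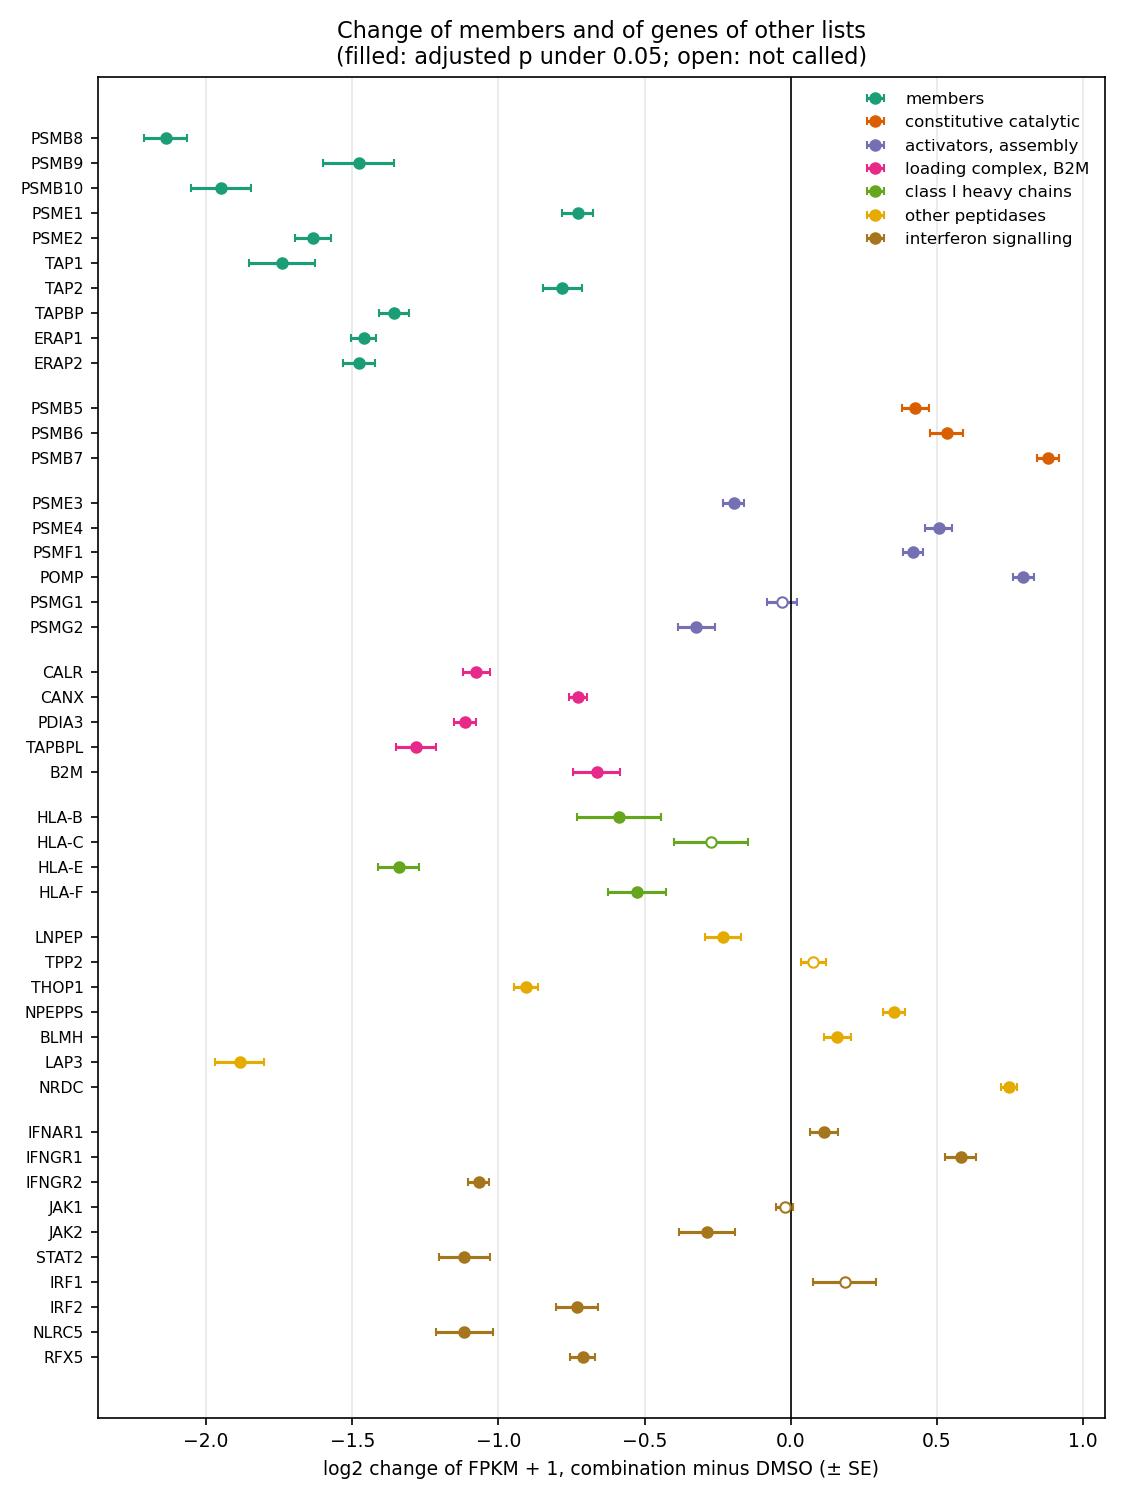
Log2 change of FPKM + 1, combination minus DMSO, with its standard error for the 10 members at the top and the 6 other gene lists below them (not every gene is drawn), filled where the limma adjusted p was under 0.05. All members lie between -2.14 and -0.73, the 3 constitutive catalytic subunits between 0.43 and 0.88.

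The members lie among genes that did not all move with them. Within 25000 bases of a member, or overlapping one, 17 other genes were tested, of which 10 were lower, 4 higher and 3 not called. Over all genes tested, 41.0% were lower and 36.9% higher. Beside TAPBP, the prefoldin subunit gene PFDN6 (1293 bases away) stood at 35.4 ± 2.75 against 15.6 ± 1.16 FPKM, and ZBTB22 (19 bases away) at 7.91 ± 1.08 against 7.20 ± 0.492 FPKM (limma adjusted p = 0.243). CAST, which encodes the calpain inhibitor calpastatin and overlaps the end of ERAP1 on the other strand, rose to 18.8 ± 0.498 against 11.1 ± 0.316 FPKM. Its exons lie over 3.76% of the exon length of ERAP1. HLA-DOB, 1367 bases from TAP2, stood at 1.14 ± 0.211 against 0.950 ± 0.0839 FPKM (limma adjusted p = 0.204). With upper-quartile factors ZBTB22 (limma adjusted p = 0.0131), HLA-DOB (0.0490) and WDR46 (0.0212) were called higher, and DAXX (0.623) and LNPEP (0.167) lost their lower calls. ZBTB22 was also called higher and DAXX also lost its call with quantile normalization. Around the PA28 pair, RNF31, which overlaps PSME2 on the other strand and encodes a subunit of the linear ubiquitin ligase, fell to 2.89 ± 0.605 against 5.64 ± 0.681 FPKM. EMC9, which overlaps the end of PSME1 on the other strand, fell to 50.4% of its DMSO mean, and the meiotic cohesin gene REC8, 24283 bases from PSME2, to 0.598 ± 0.0621 against 4.10 ± 0.305 FPKM.

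For each member, genes with the most similar profile were sought outside the members only, so members were not ranked against each other. The nearest genes were those with the smallest root-mean-square difference in log2(FPKM + 1), taken relative to the DMSO mean over the 8 samples. For TAP1 these were HERC5 (0.0682), MX2 (0.0779) and SAMD9 (0.0800), and for PSMB9 LGALS3BP (0.113), SECTM1 (0.124) and IFNL1 (0.126). PSMB8 was nearest to THBS2 (0.0536), WARS (0.0568) and NOTCH1 (0.0809), and PSMB10 to TP73, LAP3 and KLF9. PSME1 was nearest to PATL1, SMG5 and SP100, and PSME2 to REC8, RTKN and RCC1. TAP2 was nearest to UPF1, MED12 and HOXB-AS3, and TAPBP to SEMA4C, PLXNB2 and PASK. ERAP1 was nearest to MAGED2, C19orf48 and KMT5A, and ERAP2 to KLHDC8A, ARHGAP21 and KMT5A. These distances, 0.035 (TAPBP to SEMA4C) to 0.126, describe likeness over 8 samples of 2 groups. Any gene with a like change of log2(FPKM + 1) comes close. With 1 FPKM added, genes of low level can come close at an unlike fold change. MX2 kept 1.67% of its DMSO mean and TAP1 27.9%, and IFNL1 kept 7.46% and PSMB9 32.6%.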

How the data were processed

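The authors deposited 1 table of FPKM values per gene, per the file headers, which also give gene length and coordinates. Bowtie 0.12.2 appears in the submitters' processing notes, as do the builds GRCh37 and mm8, without roles. All 58735 gene identifiers and coordinates in the table equal those of GENCODE 29 on GRCh38, so coordinates are GRCh38. No source used here names the counting tool. FPKM times length was a whole multiple of 1 step per library for all values under 2000 reads (within 0.02), which gave the reads used for depth, voom and rescaling. The authors' scaling divided by 0.954 to 1.00 times these reads in combination samples and 1.03 to 1.04 times in DMSO. A 1 kb gene with 3 reads stands at 0.173 to 0.197 FPKM, a limit that covers counting error only.

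limma 3.58.1 (R 4.3.3) was fitted to log2(FPKM + 1) with the group as the only term and a mean-variance trend, over the 13296 genes averaging 1 FPKM or more. The code was also run on simulated data. Only a small share of genes was changed there, unlike here, so that run does not give the error rate in these data. Replicate numbers were not used for pairing. Ratios were compared with exact permutation tests (scipy 1.17.1). Promoter sequences are RefSeq windows, and exon overlaps come from GENCODE 29. Named genes are all members, the 6 other lists, neighbours and the 3 nearest profiles per member, though not all are printed and some are not reported here. The members and lists were chosen with earlier results of these data known. Alternatives were other scalings, pseudocounts, filters, voom, a replicate block and leaving out each sample.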

Additional observations from a re-analysis of the deposited data

Results flagged for a closer look

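Of 34 sets of 4 samples examined for an outlying value (10 members and 7 ratios in each group), 1 stood out. PSME2 in combination replicate 1 was 13.6 FPKM, while the other combination samples lay between 12.1 and 12.3 FPKM. Chance flags about 1 in 20 such sets. Its decrease was called without that sample as well, with a log2 change of -1.67.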

How the results depend on the processing

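All 10 members stayed lower and called under every alternative that tested them. With a mean of at least 5 FPKM required, 7 members were tested and all 7 were lower, as PSMB10, TAP2 and ERAP2 fell under the filter. Upper-quartile factors moved the median log2 change of all genes to 0.11 and that of the members to -1.35, and voom gave -0.10 and -1.82. With nuclear read totals the members' median was -1.44. With a pseudocount of 5 their median was -1.01, and 5 of 10 in place of 8 fell by at least 2-fold. Over all genes, 7747 were higher without the filter, and with the 5 FPKM filter 2821 were higher and 3277 lower. Balance between directions depended on scaling, with 6149 higher and 4427 lower under upper-quartile factors.

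Among other proteasome factors, 1 in place of 2 was lower with upper-quartile factors. Among genes of interferon signalling, 4 in place of 2 were higher with upper-quartile factors and with quantile normalization, and 1 with library totals, a pseudocount of 0.1, no filter and voom, since the call of IFNAR1 was lost. Leaving out 1 sample gave 1 to 3.

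The labels do not say whether same-numbered samples were made together. Correlations of deviations between same-numbered samples ran from -0.0234 to 0.0672, and not every sample correlated best with its own number. Between samples of different numbers they ran from -0.0971 to 0.0790. Correlations this weak cannot settle whether the samples were paired. The replicate block gave 4839 higher and 5404 lower genes and kept all 10 members. For the ratios, pairing by number left the log2 differences at -2.76 (PSMB8 over PSMB5), -2.14 (PSMB9 over PSMB6), -4.39 (PSMB10 over PSMB7), 0.97 (PSME1 over PSME2), -0.54 (PSME1 over PSME3), -0.87 (TAP1 over TAP2) and 0.55 (ERAP1 over ERAP2), but 4 pairs cannot give an exact p below 0.125. With 1 sample left out the smallest exact p is 0.0571, so no ratio could pass. Without 1 sample they ran, in the same order, from -2.80 to -2.71, -2.24 to -2.02, -4.57 to -4.25, 0.953 to 0.9955, -0.58 to -0.50, -0.92 to -0.82 and 0.52 to 0.57. With 1 FPKM added in the ratio, ERAP1 over ERAP2 was 0.0165 (adjusted exact p = 0.60). ERAP2 averaged under 1 FPKM after the combination. PSMB10 averaged less still (0.401 FPKM), and PSMB10 over PSMB7 was then -2.83 (adjusted exact p = 0.0333). Depth limits PSMB10 most, with 9 to 16 reads per combination sample.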

Other observations

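CD74, the invariant chain of class II molecules, was among the more abundant antigen presentation transcripts of this cell line and also fell, to 296 ± 7.63 FPKM after the combination against 595 ± 22.0 FPKM in DMSO (limma adjusted p = 1.16e-08). LAPTM5, a lysosomal membrane protein gene best known from blood cells, stood at 1.44 ± 0.138 against 2.69 ± 0.221 FPKM (limma adjusted p = 2.73e-05). PECAM1, an endothelial marker, stood at 0.469 ± 0.0899 FPKM after the combination and 0.0276 ± 0.0187 FPKM in DMSO, and was under the filter.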
